A study of Rattus norvegicus with 10 samples.

Results

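The genes described here are 9 members of the vascular endothelial growth factor (VEGF) system, taken by their symbols from the 17168 rows of the count table. They are 4 ligand genes (Vegfa, Vegfb, Vegfc and Pgf) and 5 receptor genes (Flt1, Kdr, Flt4, Nrp1 and Nrp2). All 9 were in the table, and all 9 passed the low-count filter that left 12355 genes for testing. RNA came from the left hippocampus of 10 male rats of the TgF-344AD line, Fischer 344 rats with human transgenes, used to model Alzheimer's disease. The transgenes, human mutant APP and mutant presenilin 1, are driven by the mouse prion promoter and were present in both groups. The 5 ibudilast rats were given ibudilast, which inhibits phosphodiesterases, in their chow, starting at an age of 5 months and lasting 6 months. The 5 untreated rats ate rodent chow without the drug. Tissue of both groups was taken at 11 months after perfusion under ketamine and xylazine. The ibudilast samples alone were kept in a blue tissue transition solution (RNAlater-ICE), so treatment and storage cannot be told apart in any comparison below. Non-transgenic rats were not analysed here.

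VEGF ligands are secreted dimers that act on receptor tyrosine kinases of the endothelium. VEGF-A binds both VEGFR1 (Flt1) and VEGFR2 (Kdr), VEGF-B and placental growth factor (Pgf) bind VEGFR1, and VEGF-C binds VEGFR3 (Flt4) and, after processing, VEGFR2. Kdr carries most of the mitogenic and permeability signal, while Flt1 has high affinity and weak kinase activity and is also made as a soluble form that traps ligand. Neuropilins (Nrp1 and Nrp2) are co-receptors of VEGF on endothelium and receptors of class 3 semaphorins on neurons. In the brain VEGF-A comes largely from astrocytes and neurons, and the VEGF receptors lie mainly on vessels. Every member is a single row of the table, in which splice forms of Vegfa or soluble and membrane forms of Flt1 were not told apart.

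In the ibudilast rats, the transcripts of the 2 abundant ligands were higher and those of 4 receptors were lower than in the untreated rats. Vegfa rose by 1.60-fold and Vegfb by 1.75-fold, while Flt1 fell to 0.267, Nrp1 to 0.357, Nrp2 to 0.426 and Flt4 to 0.428 of the untreated level. Kdr had the same sign as the other receptors without passing the threshold, and Vegfc and Pgf did not pass. With edgeR's quasi-likelihood test and a threshold of 0.05 on the adjusted p, 2 of the 4 ligands rose and 2 did not pass, against 24.3% of all tested genes that rose. Of the 5 receptors, 4 fell and 1 did not pass, against 22.8% of all tested genes that fell. The median log2 fold change was 0.61 over the ligands and -1.23 over the receptors, against 0.02 over all tested genes. Adjusted p-values here and below come from that fit and are adjusted over all 12355 genes, of which 47.1% passed. The groups did not overlap in CPM for 2 ligands, both higher with ibudilast (18.0% of all tested genes were separated that way), and for 2 receptors, both lower (15.4% of all tested genes). CPM is the usual scaled count, relative to the size of each library after TMM scaling. The mean log2 CPM of the 5 receptors was 3.50 ± 0.20 in ibudilast and 4.82 ± 0.12 in untreated rats (SD, n = 5 each) and did not overlap, while that of the 4 ligands did, at 3.35 to 4.62 in ibudilast and 3.13 to 3.79 in untreated rats.

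**Figure D1:**
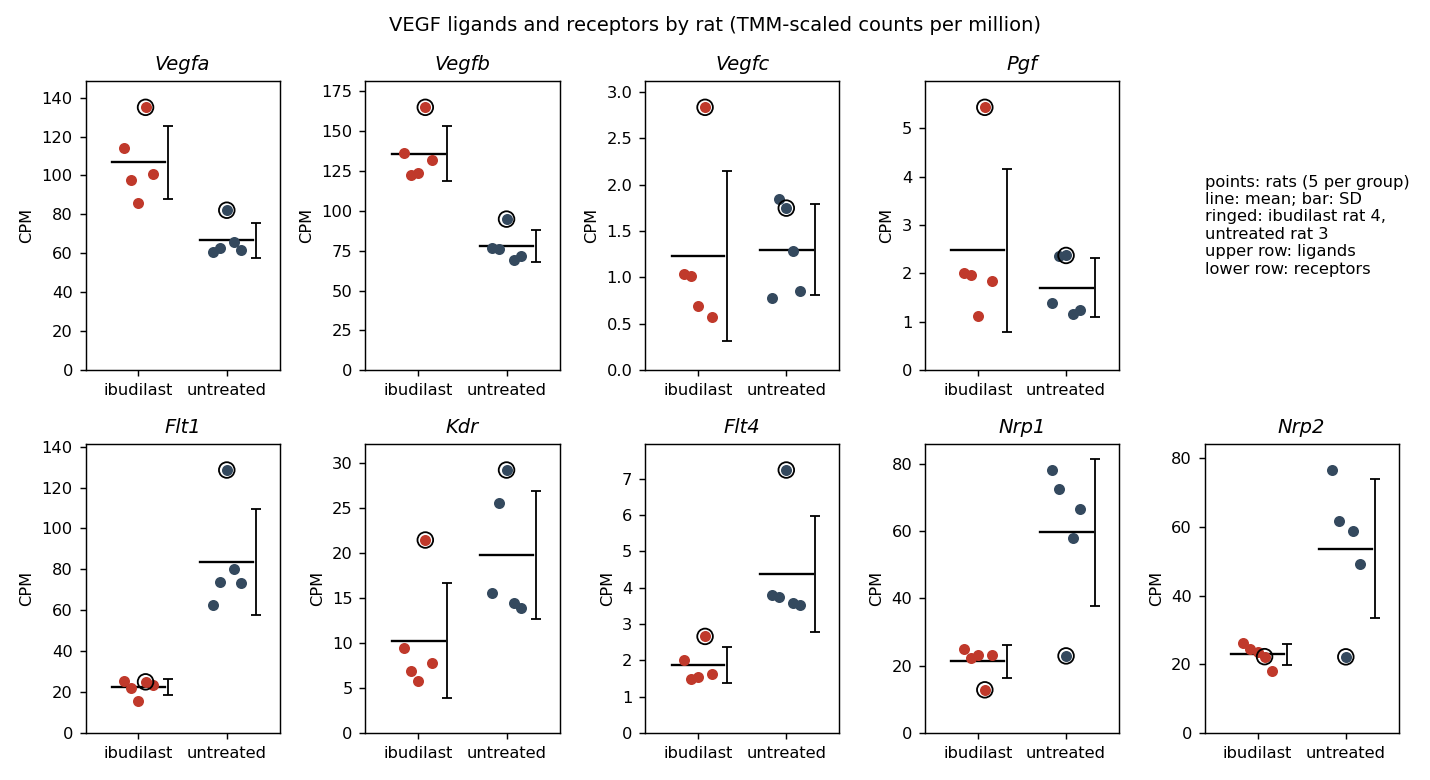
Level of each member in every rat, in CPM (vertical axis, starting at 0), with the ibudilast group left of the untreated group, ligands above and receptors below. Lines are group means, bars SDs over 5 rats, and rings mark ibudilast rat 4 and untreated rat 3. The groups do not overlap for Vegfa, Vegfb, Flt1 and Flt4.

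Libraries held 14806796 to 18533512 counts. All 11 excitatory neuron markers passed the low-count filter, with summed levels of 1469 to 6204 CPM in ibudilast and 5203 to 8015 CPM in untreated rats. Markers of neighbouring tissue were uneven between rats. Summed choroid plexus markers reached 7542 CPM in ibudilast rat 1 and 8344 CPM in untreated rat 2, against at most 377 CPM in the other 8 rats. Summed lymphatic and meningeal markers were highest in ibudilast rat 4 (1362 CPM) and untreated rat 2 (1134 CPM). Igf2 alone made up 952 and 767 CPM of these sums, and had 423 CPM in ibudilast rat 1. The mean log2 CPM of that list was highest in the same rats of each group, at 5.52 and 5.40. Untreated rat 3 had the highest endothelial sum of its group (1345 CPM) and ibudilast rat 4 that of its own (845 CPM), and the mean log2 CPM of the excitatory neuron markers was lowest in the same rats of each group, at 5.30 in ibudilast rat 4 and 7.11 in untreated rat 3. The mean log2 CPM of oligodendrocyte markers ran from 8.49 to 8.82 in ibudilast and from 7.48 to 8.41 in untreated rats, and that of microglia markers from 5.12 to 5.42 in ibudilast and from 5.65 to 6.63 in untreated rats, neither overlapping between the groups. The part of the microglia markers in the results below was not tested. Values without single rats are given where a call depends on them.

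The promoters of the ligand genes that rose and of the main receptor genes are shown with their matches to 3 short motifs, as a description of these genes. Windows of 250 bases before to 50 bases after each RefSeq start on the GRCr8 assembly were matched by symbol for all 9 members, with 2 starts for Vegfa. They were searched on both strands for a CRE core (TGACG), a hypoxia response element core (ACGTG) and an Sp1 box (GGGCGG), which were present in 21.2%, 19.3% and 33.1% of all 33469 windows of the same length. The Sp1 box was in the windows of 7 members, the CRE core in that of 1, Flt1, and the hypoxia core in none of these windows. The 250 bases before the first start are printed 5′ to 3′ with these matches in capitals.
Vegfa (chr9:22452604-22452853, plus strand): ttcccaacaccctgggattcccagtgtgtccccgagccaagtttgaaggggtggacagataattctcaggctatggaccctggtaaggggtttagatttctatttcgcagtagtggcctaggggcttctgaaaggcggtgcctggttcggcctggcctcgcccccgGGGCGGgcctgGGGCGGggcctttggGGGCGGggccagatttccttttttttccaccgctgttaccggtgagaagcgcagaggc
Vegfb (chr1:213607153-213607402, minus strand): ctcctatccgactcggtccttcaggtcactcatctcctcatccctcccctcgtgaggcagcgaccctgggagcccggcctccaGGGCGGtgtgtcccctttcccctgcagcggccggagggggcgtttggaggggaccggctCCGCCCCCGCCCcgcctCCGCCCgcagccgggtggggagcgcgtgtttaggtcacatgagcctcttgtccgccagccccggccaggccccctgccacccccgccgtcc
Flt1 (chr12:12333180-12333429, plus strand): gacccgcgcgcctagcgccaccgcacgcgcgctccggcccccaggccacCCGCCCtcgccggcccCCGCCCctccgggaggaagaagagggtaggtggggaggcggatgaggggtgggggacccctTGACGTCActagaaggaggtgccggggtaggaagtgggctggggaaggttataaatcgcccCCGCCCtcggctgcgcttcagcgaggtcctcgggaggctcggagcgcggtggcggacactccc
Kdr (chr14:32571813-32572062, plus strand): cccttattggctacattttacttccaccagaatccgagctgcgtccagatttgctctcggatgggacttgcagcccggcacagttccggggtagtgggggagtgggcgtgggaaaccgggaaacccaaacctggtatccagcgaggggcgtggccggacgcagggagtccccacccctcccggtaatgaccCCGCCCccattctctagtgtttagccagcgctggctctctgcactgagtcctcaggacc
In Flt1 the run TGACGTCA, which is the full palindromic CRE and holds overlapping core matches on both strands, begins 124 bases before the start. The full palindrome, searched for after the core had been seen, was in 1.83% of all windows and in 1 of the 9 members. The other capitals are Sp1 boxes or their reverse complements. A match is a description of the sequence, not a binding site, and its relation to the expression values was not tested. Sequence outside these windows was not searched.

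Among the ligands, Vegfa, the main angiogenic factor, had 114, 97.7, 85.8, 135 and 101 CPM in ibudilast rats 1 to 5, against 60.7, 62.8, 82.2, 65.8 and 61.9 CPM in untreated rats 1 to 5. The lowest ibudilast rat lay just above untreated rat 3, the highest of its group, and the groups did not overlap. Such separation in either direction was seen in 33.4% of all tested genes. The log2 fold change of Vegfa was 0.68 ± 0.13 (SE, adjusted p = 0.00161).

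Vegfb, a ligand of VEGFR1 linked to vessel survival and lipid handling rather than vessel growth, had the smallest spread of the 9 members within both groups. It had 136, 122, 124, 165 and 132 CPM in ibudilast rats, against 76.4, 76.4, 94.8, 69.2 and 71.7 CPM in untreated rats. All ibudilast rats lay above all untreated rats, with ibudilast rat 4 and untreated rat 3 the highest of their groups. The log2 fold change was 0.81 ± 0.11 (SE, adjusted p = 2.20e-04). Its coefficient of variation was 12.8% in ibudilast and 13.0% in untreated rats.

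Vegfc, the lymphatic growth factor, rested on 10 to 48 counts per library. It had 1.04, 1.01, 0.697, 2.84 and 0.579 CPM in ibudilast rats and 0.782, 1.84, 1.75, 1.28 and 0.852 CPM in untreated rats. The groups overlapped throughout, and ibudilast rat 4 was the highest of all 10. Its log2 fold change was -0.08, with a 95% interval from -1.07 to 0.92 that spans changes in both directions at this depth. Pgf, the placental growth factor, was also scarce, at 16 to 92 counts per library. It had 2.02, 1.96, 1.12, 5.43 and 1.85 CPM in ibudilast rats and 1.38, 2.37, 2.37, 1.15 and 1.25 CPM in untreated rats. Ibudilast rat 4 was again far above the rest, the groups overlapped, and the log2 fold change of 0.54 (95% interval from -0.38 to 1.46, adjusted p = 0.318) became 0.01 without that rat.

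Figf, which encodes VEGF-D and is the remaining classical ligand gene, had 0 to 9 counts per library and did not pass the low-count filter.

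Flt1 (VEGFR1) showed the largest difference of the family. It had 25.3, 22.1, 15.6, 25.0 and 23.3 CPM in ibudilast rats, against 62.3, 73.8, 129, 80.0 and 73.1 CPM in untreated rats. The highest ibudilast rat was at less than the lowest untreated rat by a wide margin, and untreated rat 3 stood above the rest of its group. The log2 fold change was -1.91 ± 0.20 (SE, 95% interval from -2.36 to -1.45, adjusted p = 6.45e-05), a 3.75-fold lower level. Only 5 of the 12355 tested genes had a lower log2 fold change. In these whole-tissue samples, fewer cells of a type and less RNA per cell cannot be told apart.

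Kdr (VEGFR2), the main signalling receptor, had 9.39, 6.91, 5.79, 21.4 and 7.76 CPM in ibudilast rats and 15.6, 25.5, 29.2, 14.5 and 13.9 CPM in untreated rats. Of the 5 ibudilast rats, 4 lay below every untreated rat, and ibudilast rat 4 lay among the higher untreated ones. With all rats its log2 fold change was -0.94 ± 0.37 (SE, adjusted p = 0.0581), which did not pass. Without ibudilast rat 4 it was -1.42 (adjusted p = 0.00167), and without that rat and untreated rat 3 it was -1.22 (adjusted p = 0.00121). By DESeq2 (-0.96, adjusted p = 0.0234) and limma-voom (-1.03, adjusted p = 0.0306) Kdr passed with all rats.

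Flt4 (VEGFR3), a receptor of lymphatic endothelium and of sprouting vessels, had 2.02, 1.49, 1.53, 2.66 and 1.62 CPM in ibudilast rats, against 3.79, 3.74, 7.24, 3.59 and 3.52 CPM in untreated rats. The groups did not overlap, and 4 of the untreated rats lay close together with rat 3 above them. Flt4 fell by 1.23 ± 0.26 on the log2 scale (SE, adjusted p = 0.00334) from 22 to 116 counts per library.

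The neuropilins followed another pattern across rats. Nrp1 had 25.0, 22.1, 23.3, 12.8 and 23.3 CPM in ibudilast rats, against 78.2, 72.7, 22.9, 58.0 and 66.5 CPM in untreated rats. Nrp2 had 26.1, 24.6, 23.5, 22.2 and 17.9 CPM in ibudilast rats, against 76.6, 61.7, 22.2, 58.8 and 49.3 CPM in untreated rats. For both co-receptors, 4 untreated rats lay far above all ibudilast rats, while untreated rat 3 lay at the ibudilast level, so the groups overlapped through 1 rat. That rat was the highest of its group for Flt1, Kdr and Flt4. Nrp1 fell by 1.49 ± 0.30 and Nrp2 fell by 1.23 ± 0.27 on the log2 scale (SE, adjusted p = 0.00245 and 0.00365). Without untreated rat 3 and ibudilast rat 4, the values were -1.56 and -1.42, and without the 4 rats with uneven markers (ibudilast 1 and 4, untreated 2 and 3) they were -1.56 and -1.49, all past the threshold. With the excitatory neuron marker mean as a covariate, Nrp1 was at -0.99 and Nrp2 at -1.07 (adjusted p = 0.0298 and 0.0383).

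**Figure D2:**
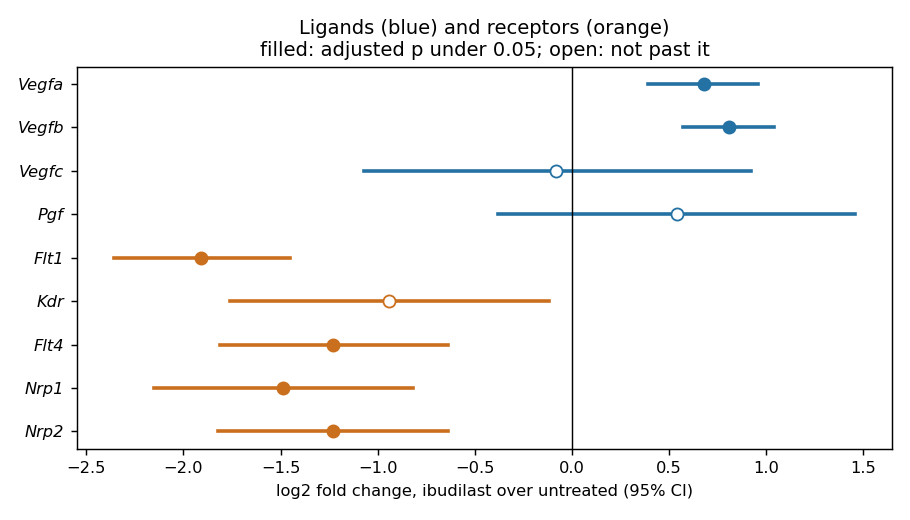
Log2 fold change of each member, ibudilast over untreated (horizontal axis), with its 95% interval from edgeR's quasi-likelihood fit. Filled points passed an adjusted p of 0.05. The intervals of Vegfa and Vegfb lie above 0, those of the 5 receptors lie below 0, and Kdr did not pass after adjustment.

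Ratios of ligand to receptor transcripts within a rat were also compared. Counts are not divided by transcript length, so only differences of a ratio between rats can be read, and these ratios carry no test. The log2 ratio of Vegfa to Flt1 was 2.17, 2.14, 2.45, 2.43 and 2.11 in ibudilast rats, against -0.04, -0.23, -0.65, -0.28 and -0.24 in untreated rats. The group means were 2.26 ± 0.17 and -0.29 ± 0.22 (SD, n = 5 each), a 5.84-fold difference with tight groups that did not overlap. The log2 ratio of Vegfa to Kdr averaged 3.51 ± 0.50 in ibudilast and 1.81 ± 0.40 in untreated rats, again without overlap, with ibudilast rat 4 the lowest of its group at 2.65. The log2 ratio of Flt1 to Kdr ran from 0.22 to 1.66 in ibudilast and from 1.53 to 2.46 in untreated rats, and here the groups overlapped.

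**Figure D3:**
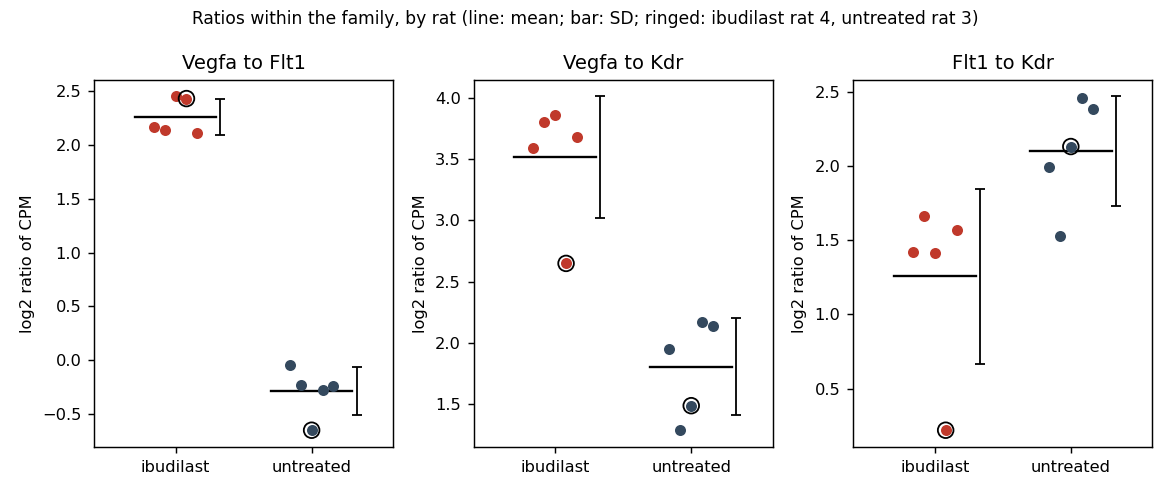
Log2 ratio of CPM within each rat (vertical axis) for Vegfa to Flt1, Vegfa to Kdr and Flt1 to Kdr, ibudilast left of untreated. Lines are means, bars SDs over 5 rats, rings mark ibudilast rat 4 and untreated rat 3. The Vegfa to Flt1 ratio lies between 2.11 and 2.45 in ibudilast rats and between -0.65 and -0.04 in untreated rats.

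Of 20 measured endothelial markers, none of them a VEGF receptor, 10 fell and 10 did not pass, against 22.8% of all tested genes that fell. Their median log2 fold change was -0.80. Without ibudilast rat 4, 16 fell, while 8 to 11 fell in the other fits without 1 rat, and 8 with a replicate block. Without ibudilast rat 4 and untreated rat 3 together, a choice made after seeing the data, 16 fell and 1 rose. With all rats 14 fell by DESeq2 and 10 by limma-voom. Without the 4 rats with uneven markers, 17 fell and 1 rose. The excitatory neuron marker mean as a covariate gave 17 lower and 0 higher in edgeR's fit. With the oligodendrocyte marker mean as a covariate, 0 passed as lower in edgeR's fit, where 2 were lower at an unadjusted p under 0.05. The angiopoietin receptor Tek fell by 1.26, the sialomucin Emcn by 1.02, the thyroid hormone transporter Slco1c1 by 0.94 and the efflux pump Abcb1a by 1.02 on the log2 scale (adjusted p = 0.00278, 0.00278, 0.00234 and 0.00421). With the endothelial mean itself as a covariate, 2 markers were lower and 4 higher in edgeR's fit. Emcn and Slco1c1 did not pass there (adjusted p = 0.0757 and 0.0853). That mean includes these markers, so this fit is not a separate check of them. The summed level of the 20 markers ran from 414 to 845 CPM in ibudilast and from 709 to 1345 CPM in untreated rats. No marker was at 0 in any rat.

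Relative to the mean log2 CPM of the endothelial markers, Flt1 was still lower in all ibudilast rats, at 0.46, 0.49, 0.26, -0.13 and 0.40, against 1.47, 1.21, 1.49, 1.58 and 1.50 in untreated rats. Thus Flt1 lay 1.15 further down on the log2 scale than the markers did, with no overlap. Kdr relative to the markers was -0.96 ± 0.36 in ibudilast and -0.65 ± 0.24 in untreated rats, and Flt4 was -3.21 ± 0.15 and -2.78 ± 0.20 (SD, n = 5 each), with overlap for both. Nrp1 was 0.21 ± 0.74 and 0.89 ± 1.09, and Nrp2 was 0.34 ± 0.47 and 0.75 ± 1.06, again with overlap. Their differences of -0.68 and -0.40 were smaller than their log2 fold changes of -1.49 and -1.23. With the endothelial marker mean as a covariate, Flt1 was at -1.32 (adjusted p = 1.40e-04), Nrp1 at -2.30 and Nrp2 at -1.71 (adjusted p = 1.55e-04 and 0.00150), Flt4 at -0.54 (adjusted p = 0.0644) and Kdr at 0.04 (adjusted p = 0.901). Vegfa and Vegfb were at 1.04 and 1.09 in that fit, and Pgf, at 1.55, passed (adjusted p = 0.00220). For Nrp1 and Nrp2 the fall was larger in that fit and smaller after subtraction of the marker mean, and the reason was not tested. With the oligodendrocyte marker mean as a covariate, a mean that did not overlap between the groups, Flt4 was at -0.69 (adjusted p = 0.184) and Flt1 at -1.60 (adjusted p = 0.00388).

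**Figure D4:**
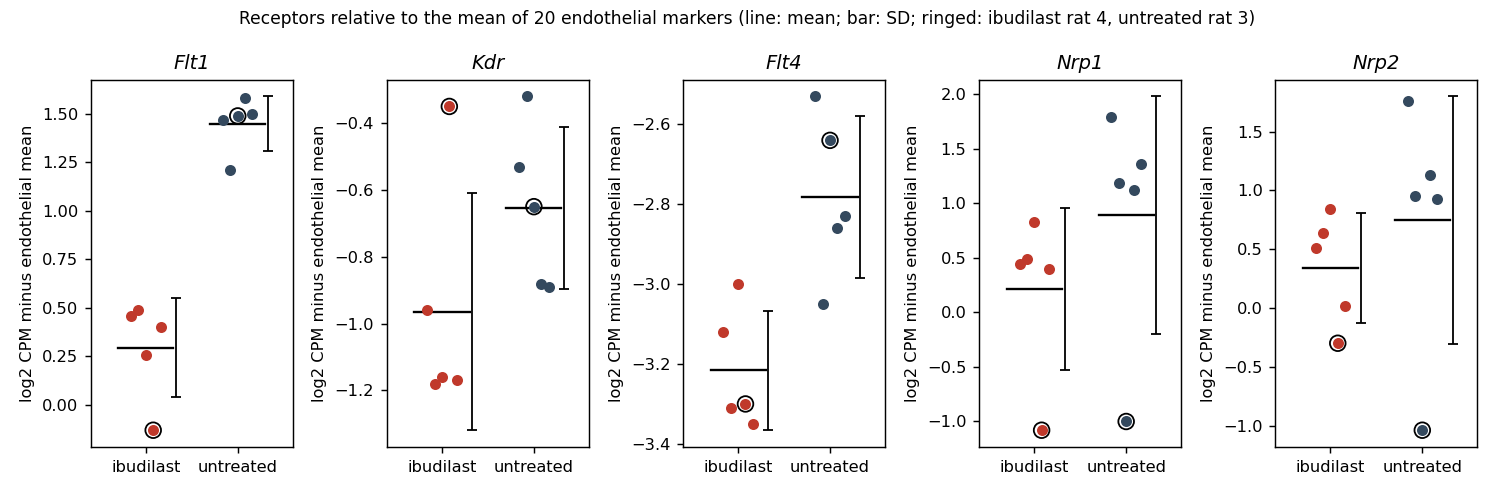
Log2 CPM of each receptor minus the mean log2 CPM of 20 endothelial markers in the same rat (vertical axis, a separate scale for each panel), ibudilast left of untreated. Lines are means, bars SDs over 5 rats, rings mark ibudilast rat 4 and untreated rat 3. Flt1 lies at or below 0.49 in ibudilast rats and at or above 1.21 in untreated rats, while the other receptors overlap.

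The lists that follow are read against all tested genes, of which 24.3% rose and 22.8% fell. Some genes are shared between lists, endothelial markers among them, so the counts of different lists are not independent. Of 9 measured oxygen-sensing genes, which act upstream of VEGF, 2 rose, a share near that of all genes, 4 fell and 3 did not pass. Hif1a, the oxygen-regulated subunit of the main hypoxia factor, had 43.2 ± 4.53 CPM in ibudilast and 81.7 ± 10.7 CPM in untreated rats (SD, n = 5 each, log2 fold change -0.92, adjusted p = 9.37e-05). Epas1, which encodes HIF-2 alpha and is high in endothelium, fell by 0.98, and Hif1an, an inhibitor of HIF, fell by 0.46, both calls lost with the oligodendrocyte covariate (adjusted p = 0.0540 and 0.158). Egln2, a HIF prolyl hydroxylase, rose by 0.53 on the log2 scale. Among 16 other hypoxia response genes, 1 rose, 5 fell and 10 did not pass, with a median log2 fold change of -0.17. The collagen hydroxylase gene P4ha1 fell by 0.62, the glycolytic regulator Pfkfb3 by 0.72 and the mitophagy gene Bnip3 by 0.40, while the related Pfkfb4 rose by 0.39. The call of Pfkfb4 was lost without the 4 rats with uneven markers (adjusted p = 0.0512).

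Downstream of the receptors, 4 of 22 signalling genes rose, a share below the 24.3% of all tested genes, 9 fell, a share above the 22.8% of all tested genes, and 9 did not pass. Plcg1, the phospholipase that VEGFR2 recruits, had 185 ± 19.9 CPM in ibudilast and 109 ± 12.5 CPM in untreated rats (SD, n = 5 each, log2 fold change 0.76, adjusted p = 1.69e-04). The adaptor gene Crk fell by 0.92 and the PI3-kinase regulatory gene Pik3r1 by 0.67 on the log2 scale. These genes also serve many other receptors and cell types. Of 13 tip cell, stalk cell and Notch genes, 1 rose, 2 fell and 10 did not pass, both shares below those of all tested genes (24.3% and 22.8%). Dll4, the Notch ligand of tip cells, fell by 1.35, a call that was lost without the 4 rats with uneven markers (-1.18, adjusted p = 0.0609) and with the endothelial (-1.02, adjusted p = 0.0796) or oligodendrocyte (-1.10, adjusted p = 0.0968) mean as a covariate. The Notch target Hey1 fell by 0.68 and endothelial Notch4 rose by 0.71, and Notch4 lost its call without untreated rat 2 (adjusted p = 0.0506) or 4 (adjusted p = 0.0565). Hey2 was at -0.55 (adjusted p = 0.0615).

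Other vascular and neuropilin partners were also examined. In the angiopoietin axis, 2 of 6 genes fell and 4 did not pass, against 22.8% of all tested genes that fell. Angpt1, a vessel-stabilising ligand made by mural cells and other cells, fell by 1.29 on the log2 scale together with its receptor gene Tek, whose call was lost with the oligodendrocyte covariate (adjusted p = 0.120). Tie1 was at -0.60 and Angpt4 at -0.37, neither past the threshold (adjusted p = 0.0791 and 0.313), and Tie1 was at -0.82 without ibudilast rat 4 (adjusted p = 0.0144). Of 10 class 3 semaphorin and plexin genes, which encode the other ligands and signalling partners of neuropilins, 2 rose, 4 fell and 4 did not pass. Sema3c fell by 1.37, Sema3d by 0.96 and the plexin gene Plxna2 by 0.79, while Plxna3 rose by 0.56. The call of Plxna2 was lost with the oligodendrocyte covariate (adjusted p = 0.0721) and that of Sema3d with the endothelial one (adjusted p = 0.121). In the related PDGF family, 3 of 6 genes fell and 3 did not pass, with Pdgfb at -0.76, Pdgfd at -1.20, the progenitor receptor gene Pdgfra at -0.92 and Pdgfa at 0.25 (adjusted p = 0.0696). With the oligodendrocyte covariate Pdgfb, Pdgfd and Pdgfra did not pass (adjusted p = 0.202, 0.0955 and 0.183), and with the endothelial one Pdgfb and Pdgfd did not (adjusted p = 0.0601 and 0.283). Without untreated rat 3, Pdgfa was at 0.28 (adjusted p = 0.0340).

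Across the 10 rats, after each group mean was subtracted, the genes whose log2 CPM deviations were most like those of Flt1 were Gcnt2, Inppl1, Hps5, Ets1 and Notch1 (Pearson 0.957 to 0.970). For Kdr they were Npr2, Aifm3, Slc25a1, Ier3 and Rin3 (0.983 to 0.991), and for Vegfa Nqo1, Arhgap18, Cndp1, Zfp93 and Abhd1 (0.976 to 0.985). These are the highest values over all tested genes and carry no test, and the rats share library and depth across genes.

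**Figure D5:**
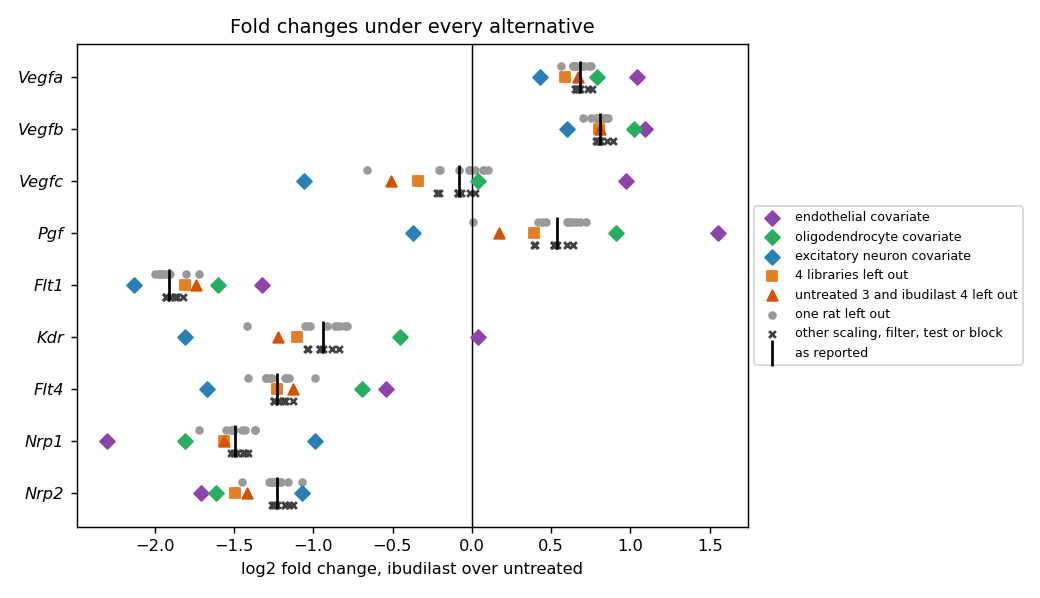
Log2 fold change of each member, ibudilast over untreated (horizontal axis), as reported (black bar) and under each alternative, with a point for each rat left out in turn, each marker covariate, left-out libraries and other scalings, filters and tests. Vegfa, Vegfb, Flt1, Flt4, Nrp1 and Nrp2 keep their sign under every alternative shown, while Vegfc, Pgf and Kdr cross 0 under at least 1.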

How the data were processed

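Left hippocampal RNA of 10 rats was sequenced, 1 library per rat, and titles gave groups and rat numbers. Libraries came from a stranded mRNA kit, per the labels' protocols. The authors deposited expected counts for each gene, without normalization. Tools listed in the submitters' processing notes, with no role, are RSEM 1.2.15, Bowtie2 2.1.0, bcl2fastq and edgeR, with rn6 as the build. A second deposited table of normalized values was not used.

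Expected counts (12.0% not whole) were rounded. Genes were tested by robust quasi-likelihood in edgeR 4.0.16 (R 4.3.3) with TMM factors, filterByExpr and Benjamini-Hochberg adjustment at 0.05. SEs were derived from the fold change and F. CPM divides counts by the TMM-scaled library size, and log2 CPM adds a prior count of 2. Alternatives used DESeq2 1.42.0, limma 3.58.1, other factors and filters, marker covariates, a replicate block and left-out rats, of which leaving out untreated rat 3 and ibudilast rat 4 together was chosen after seeing the data. The fit was tested on simulated data. The members and lists were chosen with earlier results of these data known. Apart from members, up to 4 genes per list with the smallest p are named, and for Vegfa, Flt1 and Kdr the 5 genes most like them across rats. 1 gene that this rule names is not reported here. For non-endothelial cell marker lists only counts and summed or mean levels are given, except for Lyve1, Prox1 and Igf2. That choice was made after the values were seen. Replicates are separate rats, and no same-group pair agreed within sampling noise (lowest chi-square per gene 11.5). Coordinates of promoters are from GRCr8, while rn6 is the build named for the counts. How the authors' counting used strand, and how it treated noncoding genes annotated inside Flt1, Nrp1 and Nrp2, is not given in the sources used here.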

Additional observations from a re-analysis of the deposited data

Results flagged for a closer look

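In each group of 5 rats, a rat was singled out where its gap to the nearest other rat exceeded 0.71 of the group's range. This held in 19 of the 94 groups of values examined, and chance gives about 1 in 20 for independent groups. These groups are the same 10 rats measured over correlated genes and ratios, so the 2 rates cannot be set against each other. All 19 involve ibudilast rat 4 (10) or untreated rat 3 (9).

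Ibudilast rat 4 was the highest of its group for Vegfc (2.84 CPM), Pgf (5.43 CPM) and Kdr (21.4 CPM) and the lowest for Nrp1 (12.8 CPM). Untreated rat 3 was the highest of its group for Vegfa (82.2 CPM), Vegfb (94.8 CPM), Flt1 (128.6 CPM) and Flt4 (7.24 CPM). Among other named genes, ibudilast rat 4 stood out for Plcg1 (219.2 CPM) and Tie1 (32.7 CPM). Untreated rat 3 stood out for Egln2 (164.3 CPM), Plcg1 (130.7 CPM), Notch4 (37.3 CPM) and Hey2 (18.0 CPM), each on the high side.

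The log2 ratios of ibudilast rat 4 also stood apart for Vegfa to Kdr (2.65), Flt1 to Kdr (0.22), Kdr to the endothelial marker mean (-0.35) and Nrp1 to that mean (-1.08). For untreated rat 3 the log2 ratio of Nrp1 to the endothelial marker mean was -1.0. The mean log2 CPM of mural cell markers was 4.54 in ibudilast rat 4, against 3.02 to 3.40 in the other ibudilast rats, and that of microglia markers was 6.63 in untreated rat 3, against 5.65 to 5.91 in the other untreated rats. The part of these markers in the VEGF values was not tested beyond the fits without these rats.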

How the results depend on the processing

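Vegfa (0.43 to 1.04), Vegfb (0.60 to 1.09), Flt1 (-2.13 to -1.32), Nrp1 (-2.30 to -0.99) and Nrp2 (-1.71 to -1.07) passed in the same direction under all 13 alternatives and in all 10 fits without 1 rat. Flt4 passed in the 10 fits without 1 rat (-1.41 to -0.99) but not with the endothelial (-0.54) or oligodendrocyte (-0.69) marker mean as a covariate. Kdr passed by DESeq2 (-0.96), limma-voom (-1.03), without 4 libraries (-1.10), without untreated rat 3 and ibudilast rat 4 (-1.22, chosen after seeing the data) and with the neuron covariate (-1.81), and was at 0.04 with the endothelial one. Without 1 rat it ran from -1.42 to -0.79. Vegfc changed sign with library size alone (0.02) and with the endothelial (0.97) and oligodendrocyte (0.04) covariates, passed with the neuron covariate (-1.06, the 1 ligand called lower there), and ran from -0.66 to 0.10 without 1 rat. Pgf passed with the endothelial covariate (1.55) and was at -0.37 with the neuron one. Tie1 changed sign with the endothelial covariate (0.23), a mean that includes Tie1. The oligodendrocyte covariate left 1883 genes higher and 1699 lower, against 3004 and 2813. The cause of these shifts was not tested. Shared rat numbers did not pair the rats (correlations of same-numbered deviations from -0.33 to 0.42, and 1 of 10 libraries closest to its own number). For the named genes of other lists, 648 refits kept the call, 25 lost it, 16 gained it and 1 changed sign. Epas1, Hif1an, Tek, Emcn, Slco1c1, Abcb1a, Dll4, Plxna2, Pdgfb, Pdgfd and Pdgfra did not pass with the oligodendrocyte covariate. With a replicate block 2497 genes were higher and 2229 lower, Flt1 was at -1.87 and Kdr at -1.04 (adjusted p = 0.0911), and it changed no call of the members. Depth limits Vegfc, Pgf and Flt4, which had at most 116 counts per library.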

Other observations

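The other marker lists are read against all tested genes, of which 24.3% rose and 22.8% fell. Of oligodendrocyte markers 7 of 12 rose and 5 did not pass, and of microglia markers 7 of 10 fell and 3 did not pass. Of astrocyte markers 4 of 10 fell and 6 did not pass. Of excitatory neuron markers 3 of 11 fell and 8 did not pass, and of mural cell markers 3 of 13 fell and 10 did not pass. These last 2 shares were near that of all genes that fell. The median log2 fold change was -0.80 over the excitatory neuron markers and -0.03 over the mural cell markers, against 0.02 over all tested genes. The 10 choroid plexus markers and the 9 tested lymphatic and meningeal markers did not pass in either direction by edgeR. At an unadjusted p under 0.05, 0 choroid plexus markers and 2 lymphatic and meningeal markers (1 higher, 1 lower) passed. By DESeq2 those counts after adjustment were 0 and 2 (1 higher, 1 lower), and by limma-voom 0 and 0. In edgeR's fit the unadjusted higher gene was Lyve1 and the lower was Prox1. Prox1 had 4.495 CPM in untreated rat 3, against 30.37 to 51.85 CPM in the other untreated rats. That rat also had the lowest mean log2 CPM of excitatory neuron markers in its group (7.11). Whether the Prox1 counts came from lymphatic or meningeal tissue, or from other cells such as neurons, was not tested.

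In the GRCr8 annotation, Fkbp2, Dnajc4 and Nudt22 lie within 5 kb of Vegfb. Chosen after the values were seen, they had log2 fold changes of 0.59 for Fkbp2 (adjusted p = 0.00334), 0.69 for Dnajc4 (adjusted p = 3.45e-04) and 0.36 for Nudt22 (adjusted p = 0.0854), and their mean counts were 1.26, 0.2 and 0.0979 times that of Vegfb.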
